A study of Drosophila melanogaster with 30 samples.

Results

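Ovaries of fruit flies (Drosophila melanogaster) that carried an added Y chromosome were compared with ovaries that carried none. The comparison was drawn from the labels: 4 libraries of females with an extra Y, 2 carrying the Y named Yohio (XXYohio) and 2 carrying the Y named Ycongo (XXYcongo), against 2 libraries of control females (XX). These are 6 of the 30 libraries of the series, which also holds testes, whole bodies of both sexes and the larval central nervous system (CNS). The flies of all 3 ovary groups were 2 days old, and poly(A) RNA was sequenced from both fragment ends. The labels write the X pair of all 3 groups in the same way, with a caret that is commonly used for attached X chromosomes but that they do not spell out, and they describe the strains only as genetically manipulated for Y aneuploidy. Total counts lay between 8595497 and 15363636 per library. Levels are given as CPM, counts scaled to library size with TMM factors. A gene with 0 counts could still have had up to 3, or 0.193 to 0.354 CPM by library, a limit that covers counting error only.

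The Y chromosome of flies is almost entirely heterochromatin, made of satellite repeats and repeated gene copies, with a small number of protein-coding genes that mostly serve sperm. Females do not need it, and an added Y places a large block of repeats in nuclei that normally lack it. Y chromosomes are classical modifiers of position-effect variegation, the patchy silencing of genes beside heterochromatin. The autosomal genes embedded in heterochromatin, and the fourth chromosome, a small one that is heterochromatic over most of its length and is bound by its own protein, Pof, are therefore the gene groups most often read beside a Y dosage change.

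Markers of the labelled tissue were abundant. The posterior determinant osk had 2861 and 3033 CPM in XXYohio, 3386 and 2623 CPM in XXYcongo, and 5652 and 3391 CPM in XX. The chorion gene Cp36 had between 1955 and 4225 CPM in the 4 XXY libraries and 1096 and 2677 CPM in XX. Several markers of gut, eye and sperm lay close to 0: the gut trypsin gene alphaTry reached at most 0.910 CPM in XXY and 2.05 CPM in XX, ninaE, the major rhodopsin, reached at most 0.236 CPM in XXY and 1.63 CPM in XX, and the spermatid gene dj reached 0.387 CPM in XXY and 0.28 CPM in XX. The phospholipase C gene norpA, listed as an eye marker, was expressed, at 82.9 to 101 CPM in XXY and 119.6 and 90.6 CPM in XX. Transcripts of fat body were present and are given beside the storage protein genes. In such bulk samples, fewer cells of a type and less RNA per cell cannot be told apart.

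The mean effect of an added Y, taken as the average of the Yohio and Ycongo differences from XX, passed the test in 19 genes. Of 8829 genes tested with edgeR's quasi-likelihood test, 2 were higher (0.0227%) and 17 lower (0.193%) at a Benjamini-Hochberg adjusted p below 0.05, while 290 higher and 592 lower had an unadjusted p under 0.05. Both higher genes are Y-linked. Of the 17 lower genes, 8 are encoded by the mitochondrial genome, 2 are copies of the stress chaperone Hsp70, and the other nuclear genes were CG8500, Mrm2, pira, Lsp1beta, CG7785, nmo and CG12535. In all 19 genes the 4 XXY libraries lay on one side of both XX libraries, and the estimates for Yohio and Ycongo had the same sign, which the choice of genes by their mean and the shared XX libraries favour. Such separation was common among all genes: 10.1% had all 4 XXY libraries above both XX libraries and 10.5% had all 4 below. The median log2 fold change over all tested genes was 0.04, with 4741 estimates above 0 and 4088 below 0. DESeq2, which gave a p-value to 13241 genes, called 16 genes higher and 86 lower. Calls and adjusted p-values given below are those of edgeR unless DESeq2 is named. Leaving out XX replicate 1, XXYohio replicate 1 or XXYohio replicate 2 left no called gene, leaving out XX replicate 2 left 6, and leaving out XXYcongo replicate 1 or replicate 2 gave 71 higher and 229 lower or 21 higher and 194 lower (the 19 estimates kept their sign, which groups that do not overlap largely fix).

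**Figure D1:**
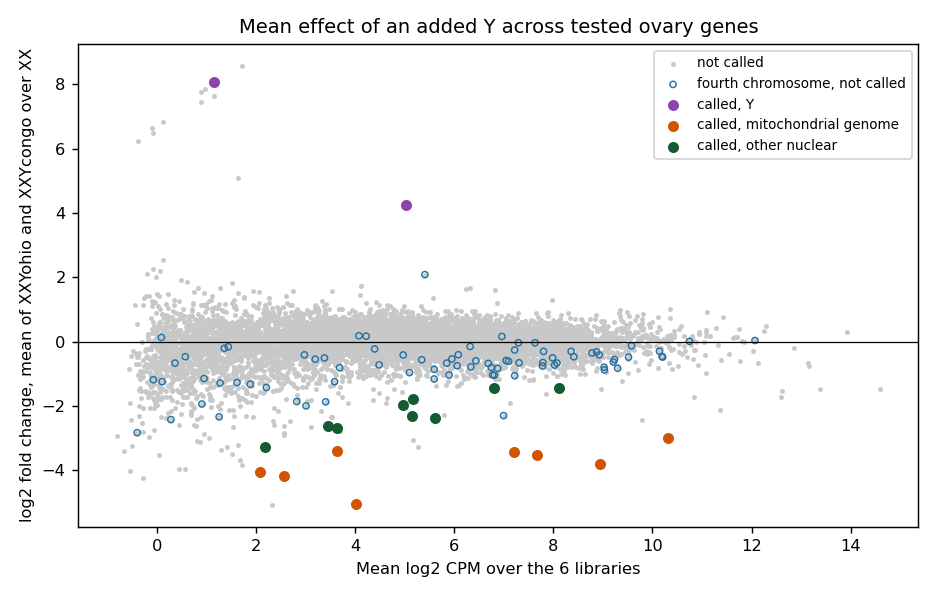
Each point is a tested gene, with its mean log2 CPM over the 6 libraries on the x axis and the log2 fold change of the added Y (mean of XXYohio and XXYcongo over XX) on the y axis; filled colours mark the 19 called genes and open circles the genes of chromosome 4. The 17 lower calls lie between log2 -5.06 and -1.43, and most open circles lie below 0.

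Y-linked RNA was the clearest gain. FDY (FBgn0265047), a Y-linked copy of the autosomal gene vig2, had 63.2 and 36.9 CPM in XXYohio, 46.9 and 42.3 CPM in XXYcongo, and 3.47 and 1.49 CPM in XX. Every XXY library lay far above both XX libraries, and the mean was 19.1 times as high, with 47.3 ± 11.3 CPM in XXY (SD, n = 4) and 2.48 ± 1.4 CPM in XX (SD, n = 2). The fitted log2 fold change was 4.26 ± 0.45 (SE, edgeR adjusted p = 0.00983), at 4.34 for Yohio and 4.18 for Ycongo. FDY had 48 counts in XX, where no Y is labelled, and whether reads of the similar vig2 are among them was not tested. The parent vig2 had 327 to 495 CPM in XXY and 276 to 346 CPM in XX, groups that overlap (log2 0.35 ± 0.27, adjusted p = 0.691).

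Suppressor of Stellate is a repeated Y gene whose transcripts are made into piRNAs against the X-linked Stellate genes in the testis, and it had no count in either XX ovary. The summed Suppressor of Stellate repeats, 34 copies, had 16.1 and 19.5 CPM in XXYohio and 28.8 and 44.3 CPM in XXYcongo. The mean in XXY was 27.2 ± 12.6 CPM (SD, n = 4). That is at least 89.9-fold higher than the level that 3 counts would give in the XX libraries. The sum passed the test (edgeR adjusted p = 0.00205), in the only direction open to it with 0 counts in XX. With XX replicate 1 left out the adjusted p was 0.0668, within a range of 4.75e-35 to 0.0668 over the alternative settings. Both XXYcongo libraries stood above both XXYohio libraries, but the difference between the Y chromosomes did not pass (log2 1.04, adjusted p = 0.582). Reads cannot be assigned safely among copies. Of the single copies 8 passed the filter on low counts, all through XXY libraries and so necessarily higher there, and Su(Ste):CR42425 was called, with 2.21, 3.22, 2.72 and 3.74 CPM in the XXY libraries and 0 in XX (at least 9.82-fold, adjusted p = 0.0463).

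Stellate RNA itself was at the limit of detection. The 14 Stellate repeats summed to 10 counts over the 4 XXY libraries and 2 counts over the XX libraries, or 0.222 and 0.108 CPM, too few to be tested. The other protein-coding Y genes were nearly silent in the ovary: kl-2 and kl-5, dynein heavy chains of the sperm tail, reached at most 6 counts in an XXY library, and PRY, CCY and Pp1-Y1 had 0 counts in every ovary library.

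**Figure D2:**
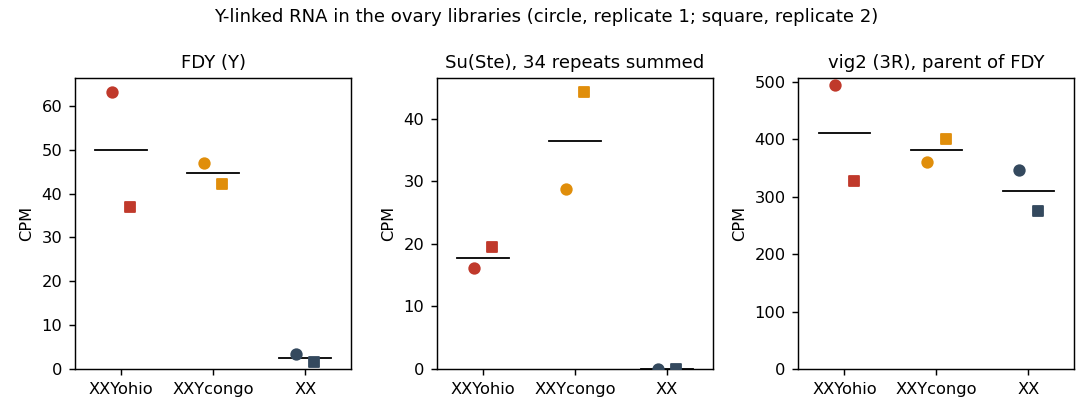
CPM of FDY, of the 34 summed Suppressor of Stellate repeats and of vig2 in each ovary library, with circles for replicate 1, squares for replicate 2 and a line at the mean of each group. FDY and the repeats are high in all 4 XXY libraries and at or close to 0 in XX, while vig2 overlaps between the groups.

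RNA encoded by the mitochondrial genome was lower with an added Y. This genome encodes subunits of the respiratory chain and ATP synthase and the transfer RNAs (tRNAs) at which its long transcripts are cut. Of its 28 tested genes all had an estimate below 0, and 8 were called lower, against 0.193% of all genes. In 23, or 82.1%, all 4 XXY libraries lay below both XX libraries, against 10.5% of all genes. The median log2 fold change was -2.11 over 13 mRNAs and -2.82 over 15 tRNAs, against 0.04 over all genes. Over all 28 genes it was -2.61, and -1.61 without XX replicate 1. Mitochondrially encoded RNA made up 4.82% and 6.61% of counts in XXYohio, 1.81% and 4.17% in XXYcongo, and 12.8% and 8.18% in XX.

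Among the called mRNAs, mt:ND3, a small subunit of complex I, had 547 and 355 CPM in XXYohio, 6.97 and 15.7 CPM in XXYcongo, and 1423 and 589 CPM in XX. The 2 XXYcongo libraries stood far below the 2 XXYohio libraries, which lay below XX. Its mean log2 fold change was -3.80 ± 0.42 (SE, adjusted p = 0.00983), and it was also the only gene, of 8829 tested, called for the difference between the added Y chromosomes (Ycongo minus Yohio log2 -5.29, adjusted p = 0.0372, 0.0113% of genes). DESeq2 called 46 genes for that difference. The complex I subunit mt:ND2 had 784 and 908 CPM in XXYohio, 140.3 and 150.2 CPM in XXYcongo, and 4163 and 1474 CPM in XX (log2 -3.01 ± 0.38, adjusted p = 0.0146). Complex I subunit mt:ND6 (log2 -3.42, adjusted p = 0.0265) and ATP synthase subunit mt:ATPase8 (log2 -3.53, adjusted p = 0.0108) followed the same order. The gene for mt:ATPase8 overlaps that of mt:ATPase6, which had 1295 to 6721 CPM in XXY and 12374 and 9038 CPM in XX and was called by DESeq2 but not by edgeR (log2 -1.53, edgeR adjusted p = 0.292). Of 33 mitochondrial genes DESeq2 called 17, all lower, against 86 of 13241 called lower over all genes. With the 4 XXY libraries as 1 group, and in a fit of all 30 libraries, edgeR called none of the mitochondrial genes.

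The abundant cytochrome oxidase mRNAs had smaller estimates than the called mRNAs, as did mt:ATPase6 (log2 -1.53). With an added Y mt:CoI had 15703, 21662, 8698 and 17276 CPM, and XX had 56502 and 29110.4 CPM, groups that do not overlap (log2 -1.46 ± 0.43, adjusted p = 0.342). Groups did not overlap for mt:CoIII either, at 1500 to 6423 CPM in XXY and 11740.5 and 10145 CPM in XX (log2 -1.72 ± 0.32, adjusted p = 0.0702). DESeq2 called mt:CoI and mt:CoIII lower. For mt:CoII the groups overlapped, at 2762 to 11781 CPM in XXY and 11643 and 13102 CPM in XX. The called tRNAs were less abundant: mt:tRNA:Ala-TGC had 8.00 and 11.5 CPM in XXYohio, 0.118 and 0.129 CPM in XXYcongo, and 57.7 and 19.4 CPM in XX (adjusted p = 0.00983). Its XXYcongo values lie under the limit of 3 counts, as do those of mt:tRNA:Asp-GTC and mt:tRNA:Met-CAT, so the size of these changes in XXYcongo is not fixed by the counts.

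Mitochondrial mRNAs carry short poly(A) tails, and levels of other RNAs without long tails also varied between libraries. The 258 snoRNA genes summed to 134 and 151 CPM in XXYohio, 665 and 171 CPM in XXYcongo, and 662 and 202 CPM in XX, so replicate 1 of XXYcongo and of XX stood above the other libraries. The part of poly(A) selection in the mitochondrial result was not tested. Leaving out the mitochondrial genes and their counts left 1 gene called higher and 3 lower. Nuclear genes for mitochondrial function leaned the other way without a single higher call. Of 89 tested genes for mitochondrial transcription, translation and RNA processing 66 had an estimate above 0 (median log2 0.25), and of 72 nuclear oxidative phosphorylation genes 50 did (median 0.16). Over all tested genes 4741 of 8829 did. The mitochondrial RNA polymerase gene PolrMT had 88.1 to 152 CPM in XXY and 67.8 and 83.4 CPM in XX (log2 0.59 ± 0.24, adjusted p = 0.464).

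The one called gene of the transcription, translation and RNA processing list was Mrm2, which encodes a methyltransferase of mitochondrial ribosomal RNA. It had 29.3 and 32.6 CPM in XXYohio, 11.5 and 11.5 CPM in XXYcongo, and 68.8 and 60.1 CPM in XX, and was called lower (log2 -1.77 ± 0.23, adjusted p = 0.0172). Its opposite-strand neighbour CG4572 overlaps it and had overlapping groups, at 64.5 to 142 CPM in XXY and 91.9 and 118 CPM in XX. On the same chromosome arm, 3R, CG8500 had 26.85 and 31.99 CPM in XXYohio, 4.37 and 8.77 CPM in XXYcongo, and 75.9 and 64.4 CPM in XX (log2 -2.32 ± 0.29, adjusted p = 0.0146). The gene on its other strand, CG12945, was also lower in every XXY library, at 38.0 to 69.6 CPM against 124 and 100.2 CPM in XX, and was not called (adjusted p = 0.111). No source used here gives the strandedness of the libraries, and reads of such pairs cannot then be told apart.

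A pair of genes for the stress chaperone Hsp70 were called lower with an added Y. Hsp70 folds damaged proteins and is made from 6 near-identical genes. Hsp70Bb had 4.95 and 3.5 CPM in XXYohio, 5.32 and 3.8 CPM in XXYcongo, and 30.7 and 25.9 CPM in XX. All 4 XXY libraries lay close together and well below XX, a 6.43-fold lower mean (log2 -2.69 ± 0.32, adjusted p = 0.0108), with estimates of -2.75 for Yohio and -2.64 for Ycongo. Hsp70Bc was called as well (log2 -2.62 ± 0.39, adjusted p = 0.0378). The more abundant copies Hsp70Aa and Hsp70Ab were lower by less and were not called (log2 -0.91 and -0.93, adjusted p = 0.330 and 0.275). Reads cannot be assigned safely among such near-identical copies, so the values of single copies are less firm than their sum. Summed over the 6 copies, Hsp70 had 123 and 119 CPM in XXYohio, 148 and 207 CPM in XXYcongo, and 369 and 303 CPM in XX, which do not overlap but did not pass (log2 -1.19 ± 0.24, adjusted p = 0.101). For the summed Hsp70 copies DESeq2 gave an adjusted p of 0.00244, and over all alternatives it ran from 0.00244 to 1.00.

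Some other heat-inducible RNAs had a like order, called by DESeq2 but not by edgeR. Hsp68 had 1.22 to 2.83 CPM in XXY and 9.97 and 11.9 CPM in XX (adjusted p = 0.0673). The nuclear stress RNA lncRNA:Hsromega had 45.0, 63.7, 109 and 79.1 CPM in XXY and 396 and 146 CPM in XX (adjusted p = 0.0702). Of 24 tested heat shock genes 20 had an estimate below 0 and 12 did not overlap downward, 50% against 10.5% of all genes, with a median log2 of -0.82. The small heat shock genes were divided. Hsp22 (log2 -2.35), Hsp23 (log2 -1.99) and Hsp67Bc (log2 -2.61) had all 4 XXY libraries below both XX libraries, at low levels and without an edgeR call. Hsp26 (log2 -0.11) and Hsp27 (log2 0.19) had overlapping groups. Hsp27, Hsp60A, Hsc70-2 and Hsc70-4 were the 4 genes with an estimate above 0. DESeq2 called 7 of 27 heat shock genes lower, against 86 of 13241 over all genes. The constitutive chaperone Hsp83 overlapped between groups, at 5063 to 9671 CPM in XXY and 7461 and 8767 CPM in XX (log2 -0.19, adjusted p = 0.891).

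The remaining called nuclear genes were pira, Lsp1beta, nmo, CG7785 and CG12535. The X-linked gene pira had 14.1, 13.5, 12.9 and 23.2 CPM in XXY and 69.4 and 53.5 CPM in XX (log2 -1.96 ± 0.29, adjusted p = 0.0349), with a Ycongo estimate of -1.76 and a Yohio estimate of -2.15. Lsp1beta, a larval serum storage protein of the fat body, had 1.16, 1.19, 1.54 and 0.645 CPM in XXY and 7.58 and 14.2 CPM in XX (log2 -3.29 ± 0.49, adjusted p = 0.0349). The protein kinase gene nmo, which acts in Wnt signalling, had 192 and 222 CPM in XXYohio, 140.0 and 149 CPM in XXYcongo, and 539.9 and 408 CPM in XX (log2 -1.45 ± 0.23, adjusted p = 0.0463). CG7785 and CG12535 had adjusted p-values of 0.0463 too, and CG12535 overlaps the growth regulator Myc, whose groups overlap.

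**Figure D3:**
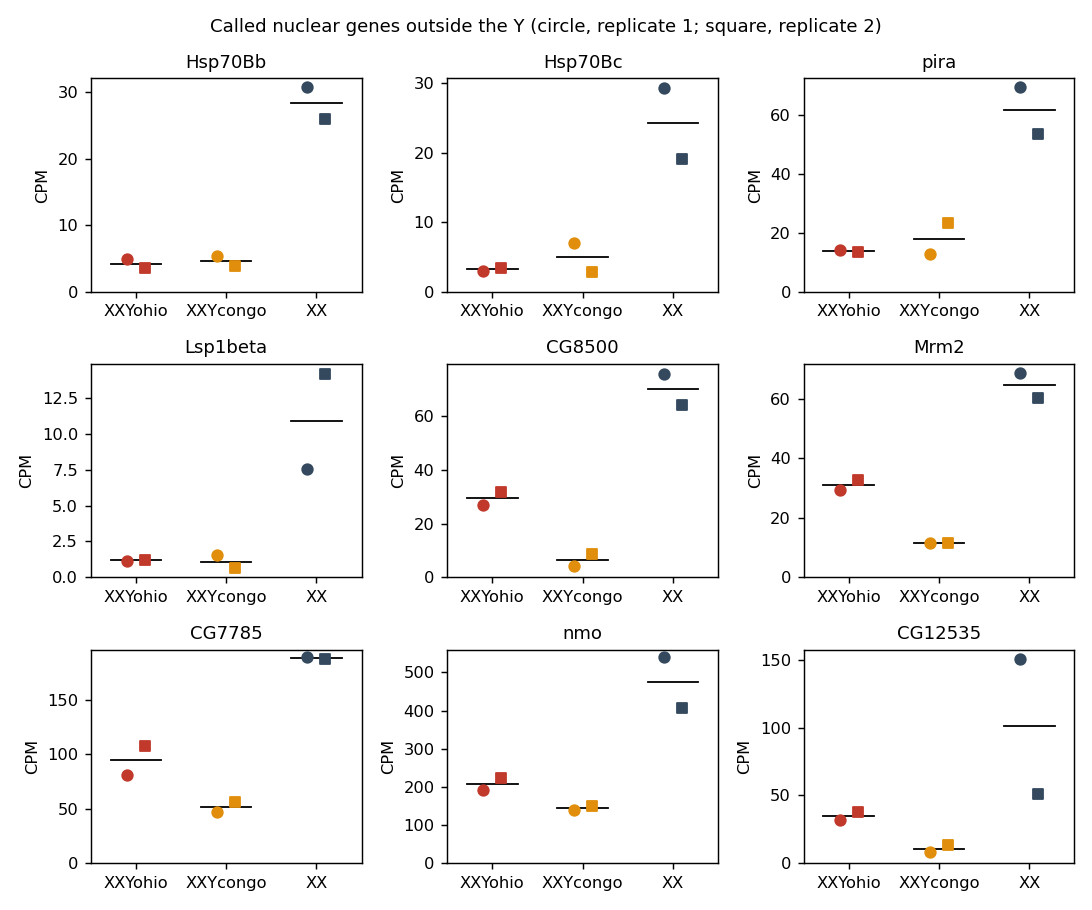
CPM of the 9 called nuclear genes outside the Y in each ovary library, with circles for replicate 1, squares for replicate 2 and a line at each group's mean. All are lower in the 4 XXY libraries; CG8500, Mrm2 and CG12535 are lowest in XXYcongo, while Hsp70Bb, pira and Lsp1beta are alike in XXYohio and XXYcongo.

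Some other fat body transcripts had lower values in XXY ovaries without a call. Lsp2 had 0.591 to 6.79 CPM in XXY and 8.67 and 15.5 CPM in XX (log2 -2.61 ± 0.56, adjusted p = 0.127), and apolpp, the lipid carrier apolipophorin, had 9.80 to 127 CPM in XXY and 356 and 152 CPM in XX (log2 -2.30 ± 0.49, adjusted p = 0.126). Of 16 tested fat body and blood cell genes 9 had an estimate below 0 and 7 above 0, and 5 did not overlap downward, 31.2% against 10.5% of all genes. Their summed level did not separate the groups, at 3073 to 5121 CPM in XXY and 4505 and 4443 CPM in XX. The fat body marker Fbp1 overlapped between groups. It was at 0 in 3 of the 4 XXY libraries, at 0.709 CPM in XXYcongo replicate 2, and at 1.73 and 0.187 CPM in XX. The part of attached fat body in the Lsp1beta result was not tested.

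The same 19 genes can be set side by side for each Y. For the called mitochondrial mRNAs the Ycongo estimates ran from log2 -6.45 to -4.28, and those of Yohio from -1.74 to -1.16. Among the 9 lower nuclear genes, the Ycongo estimate was lower than that of Yohio by over 1 in 3, CG8500, Mrm2 and CG12535, and within 0.6 of it in 5. Tested alone, Yohio gave 1 called gene (0.0113% of 8829) and Ycongo 25 (0.283%). Both use the same XX libraries.

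**Figure D4:**
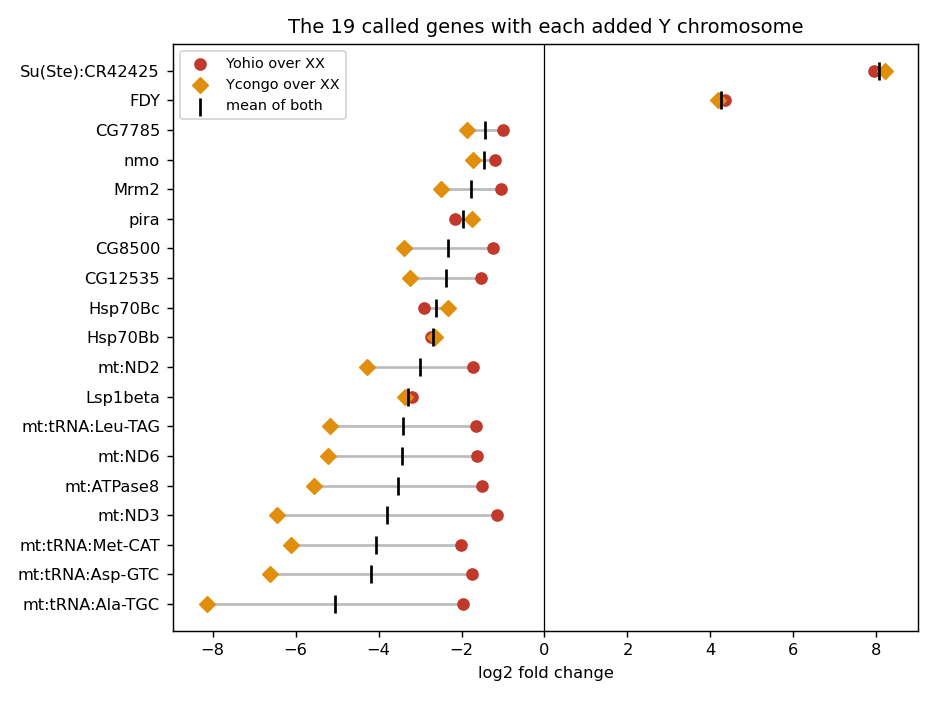
For each of the 19 called genes, the log2 fold change of Yohio over XX (circles), of Ycongo over XX (diamonds) and their mean (ticks). The mitochondrial genes are the most unequal, and FDY, Hsp70Bb and Lsp1beta are nearly equal; values for genes without counts in XX, or under 3 counts in XXYcongo, depend on the prior count of the fit.

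Genes of the fourth chromosome mostly had estimates below 0 with an added Y, although none was called. Of its 79 tested genes 72 had an estimate below 0, and 41 had all 4 XXY libraries below both XX libraries, 51.9% against 10.5% of all genes. The median log2 fold change was -0.65, with medians between -0.00 and 0.07 on the X and the 4 large autosomal arms. It was -0.71 for Yohio and -0.56 for Ycongo. Summed over the fourth chromosome, RNA came to 15833 and 17970.5 CPM in XXYohio, 19799 and 20591 CPM in XXYcongo, and 25165 and 22080 CPM in XX.

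Single genes show the size of these values. Sox102F, an HMG-box transcription factor gene, had 5.37, 4.62, 6.85 and 5.41 CPM in XXY and 25.2 and 15.2 CPM in XX (log2 -1.87 ± 0.34, adjusted p = 0.0685). The homeodomain gene zfh2 had 0.737 to 1.19 CPM in XXY and 5.96 and 3.73 CPM in XX (log2 -2.34 ± 0.50, adjusted p = 0.127). The Polycomb-group DNA-binding protein gene pho had 126 and 146 CPM in XXYohio, 67.9 and 103 CPM in XXYcongo, and 245 and 204 CPM in XX (log2 -1.06 ± 0.24, adjusted p = 0.163). Values for Pur-alpha, mGluR and Cals were likewise lower in all 4 XXY libraries, with log2 fold changes of -1.16, -1.86 and -1.04. DESeq2 called 9 of 100 genes of the chromosome lower, against 86 of 13241 over all genes. The 9 were these 6 with apolpp, CG33521 and asRNA:CR43425, and DESeq2 called CG32017 higher.

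Other genes of the chromosome overlapped between the groups. The ribosomal protein gene RpS3A had 3127 to 6174 CPM in XXY and 4623 and 3674 CPM in XX, and ATPsynbeta, a subunit of ATP synthase, had 1457 to 2082 CPM in XXY and 1649 and 1767 CPM in XX. CG32017 went against its neighbours, with 49.2 and 55.7 CPM in XXYohio, 39.2 and 82.0 CPM in XXYcongo, and 15.0 and 11.7 CPM in XX. It was the only gene of the chromosome with all 4 XXY libraries above both XX libraries (log2 2.09 ± 0.35, adjusted p = 0.0623).

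The size of the shift differed between libraries. Set against XX replicate 2, the median difference over the fourth chromosome was -0.66 and -0.36 for the XXYohio libraries and -0.66 and -0.18 for the XXYcongo libraries, on the log2(CPM + 1) scale, and set against XX replicate 1 it lay between -0.93 and -0.51. The XX libraries themselves differed, with XX replicate 1 above replicate 2 by a median of 0.31. Without XX replicate 1 the fitted median was -0.46, with 71 of 80 genes below 0, and without XX replicate 2 it was -0.83. Medians of transcript length deciles ran from -0.10 to 0.16 over all genes. The fourth-chromosome median was the lower in each of the 9 deciles that hold its genes, with as few as 3 of them in a decile. The part of transcript length in the shift was not tested. The median was -0.81 for the 39 genes of lower mean level and -0.57 for the other 40.

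The proteins that mark these regions gave no call. Pof, which encodes the protein that binds the fourth chromosome, had 29.1 and 37.0 CPM in XXYohio, 21.1 and 32.5 CPM in XXYcongo, and 56.8 and 39.4 CPM in XX. Its groups do not overlap, but the test was not passed (log2 -0.69 ± 0.28, adjusted p = 0.469). The histone methyltransferase gene egg had 84.6 to 110 CPM in XXY and 54.1 and 86.1 CPM in XX, groups that overlap (log2 0.47, adjusted p = 0.6). Of 34 tested genes for heterochromatin proteins and modifiers of variegation 22 lay above 0, against 4741 of 8829 over all genes, with a median of 0.15 and no call. The piRNA pathway, which silences transposons in the germline, had a median of 0.03 over 38 genes and no call.

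Single genes near the centromeres of the large chromosomes were read beside these, without a call. The stress-response transcription factor gene Atf6 had 153 to 221 CPM in XXY and 408 and 277 CPM in XX (log2 -0.87 ± 0.25, adjusted p = 0.335). Parp1, the ADP-ribose polymerase of chromatin, had 135, 175, 111 and 196 CPM in XXY and 267 and 217 CPM in XX (log2 -0.65 ± 0.28, adjusted p = 0.479). The cohesin loader gene Nipped-B overlapped between groups.

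**Figure D5:**
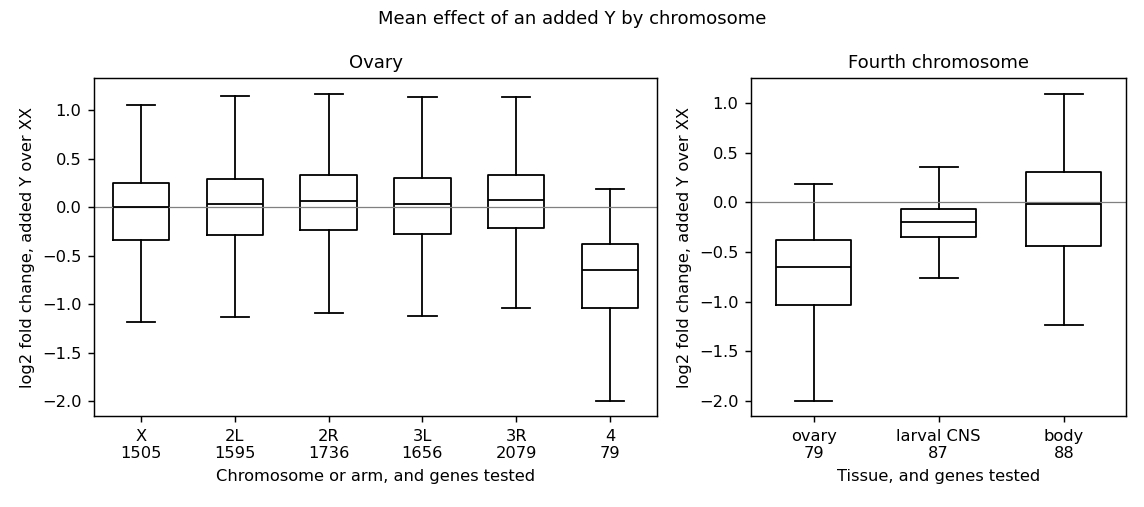
Left, log2 fold changes of the added Y over XX in the ovary for the genes of each chromosome or arm; right, for genes of the fourth chromosome in ovary, larval CNS and female body. Boxes span the quartiles with the median as a line, whiskers reach 1.5 times that span, points beyond are not drawn, and the numbers give genes tested; the fourth chromosome lies below 0 in ovary (median -0.65) and less so in the CNS (median -0.20).

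Growth-related genes leaned higher without any call. Of 41 nucleolar and rRNA synthesis genes 34 lay above 0 and 19 did not overlap upward, 46.3% against 10.1% of all genes, with a median log2 of 0.40. Surf6, a nucleolar protein gene, had 36.3, 23.9, 18.2 and 26.1 CPM in XXY and 14.0 and 14.2 CPM in XX (log2 0.88 ± 0.31, adjusted p = 0.43). Nopp140, a nucleolar chaperone of small RNA-protein particles, went the other way, with 236 to 386 CPM in XXY and 771 and 419 CPM in XX (log2 -1.01 ± 0.29, adjusted p = 0.326). Of 82 cytoplasmic ribosomal protein genes 69 lay above 0, with a median of 0.39, and 12 did not overlap upward, 14.6% against 10.1% of all genes. Their summed level was 56268 and 42980 CPM in XXYohio, 77889 and 40442 CPM in XXYcongo, and 48037 and 41547 CPM in XX, so XXYcongo replicate 1 stood apart. Without that library the median was 0.14, with 35 of 82 genes below 0, 1 called higher and 4 called lower, and without XX replicate 2 the median was 0.20.

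Genes of oogenesis gave no call with edgeR. Of 52 female germline genes 38 lay below 0, against 4088 of 8829 over all genes, with a median of -0.14 and no call. The lowest was bcd, the anterior determinant of the embryo, with 154 and 164 CPM in XXYohio, 100.4 and 98.6 CPM in XXYcongo, and 308 and 270.2 CPM in XX (log2 -1.20 ± 0.21, edgeR adjusted p = 0.0673), and DESeq2 called it lower. Eggshell genes had a median of 0.41 over 36 genes, yolk protein genes 0.19 over 4 and histone genes 0.01 over 81, each without a call. Follicle cell genes had a median of -0.17 over 28, and the antimicrobial genes of the Toll and Imd pathways 0.02 over 9. Genes of dosage compensation and sex determination had a median of -0.21 over 19, among them msl-2, the male-limited subunit of the dosage compensation complex, with 5.58 to 7.80 CPM in XXY and 11.6 and 10.9 CPM in XX (log2 -0.85 ± 0.33, adjusted p = 0.451).

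Lists for other tissues also stood lower in part. The median was -0.21 over 25 muscle genes, -0.66 over 10 neuronal genes, -0.54 over 10 photoreceptor genes and -0.46 over 11 testis and sperm genes, and the 1 gut gene tested was at -1.56. The flight and body muscle protein gene Mf had 33.0 to 45.2 CPM in XXY and 107 and 81.3 CPM in XX (log2 -1.24 ± 0.25, adjusted p = 0.104), while the muscle myosin gene Mhc overlapped between groups, at 90.3 to 224 CPM in XXY and 202 and 167 CPM in XX. Summed over the muscle list the groups overlapped, at 2419 to 3719 CPM in XXY and 3404 and 3399 CPM in XX. Replication and spindle genes had a median of 0.18 over 44.

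Some genes outside the lists missed the threshold although their groups do not overlap. CG5958 had 168, 116, 138 and 162 CPM in XXY and 35.6 and 59.6 CPM in XX (log2 1.62 ± 0.31, adjusted p = 0.0702). The decarboxylase-like gene amd had 13.6 to 28.3 CPM in XXY and 7.48 and 7.84 CPM in XX (adjusted p = 0.139), and Upf3, a factor of nonsense-mediated decay, had 10.1 to 21.3 CPM in XXY and 4.88 and 4.85 CPM in XX (adjusted p = 0.231). On the lower side, Ttc19, which serves assembly of respiratory complex III, had 6.53, 6.51, 7.21 and 9.54 CPM in XXY and 35.6 and 19.98 CPM in XX (adjusted p = 0.0623). The deacetylase gene HDAC11 had 43.6 and 49.5 CPM in XXYohio, 19.4 and 22.6 CPM in XXYcongo, and 91.4 and 70.4 CPM in XX (adjusted p = 0.0623).

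The same contrast was fitted in female whole bodies (2-day-old adults) and in the CNS of third-instar female larvae, each with 4 XXY and 2 XX libraries. It called 0 of 10459 genes in the body (edgeR, with 992 at an unadjusted p under 0.05 and 15 called by DESeq2) and 4 of 9936 in the CNS (0.0403%), of which none is among the 19. Of the 19 ovary genes 3 had the same sign in the body, and 15 of the 18 tested did so in the CNS. FDY had 9.81 ± 2.10 CPM in XXY bodies (SD, n = 4) and 0.331 CPM in XX bodies, and 25.2 ± 7.04 CPM in the XXY CNS and 10.8 CPM in the XX CNS. The CNS libraries labelled XX thus held 183 counts of FDY, and 27 counts of the Suppressor of Stellate repeats all lay in their replicate 1. The gene pira was lower in the body as well, with 5.45 to 9.17 CPM in XXY and 25.8 and 19.7 CPM in XX, groups that do not overlap (log2 -1.56 ± 0.37, adjusted p = 0.523), and overlapped in the CNS, with 26.5 to 32.2 CPM in XXY and 38.7 and 30.6 CPM in XX.

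Hsp70Bb did not follow the ovary in either tissue, with log2 fold changes of 0.59 ± 0.74 in the body and 0.57 ± 0.27 in the CNS. Mitochondrial genes had a median of 1.57 in the body, where their share of counts varied within groups (33.2% and 5.21% in XXYohio, 25.4% and 33.5% in XXYcongo, 25.2% and 9.26% in XX), and of -0.14 in the CNS. The fourth chromosome had a median of -0.20 in the CNS, with 75 of 87 genes below 0, and of -0.02 in the body, with 45 of 88 below 0. Differences in the effect of an added Y between ovary and body, and between ovary and CNS, were tested directly over 18 libraries. No gene of 11519 passed either test (edgeR, 1554 and 403 at an unadjusted p under 0.05), which does not show that the effects are equal. For Hsp70Bb these tests gave adjusted p-values of 0.154 for the body and 0.235 for the CNS, so a difference between tissues was not shown.

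The authors' deposited table that combines both Y chromosomes for the ovary can be read beside these values. It gives FDY a log2 value of 3.28, mt:ND3 -2.64, Hsp70Bb -2.23 and CG32017 1.71. All 4 have the sign of the estimates fitted here.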

How the data were processed

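Deposited files held raw read counts per FlyBase gene for each library, 16868 genes, without normalization. The submitters' processing notes name Trim Galore, Bowtie2, SAMtools, DESeq2 1.8.1 and R 3.2.3. Genome build, aligner settings and strandedness: not given in the sources used here. The authors' deposited tables give log2 fold changes and p-values, and were used only to quote their combined ovary values. "Cs" in some deposited names was read as Yohio, following the genotype labels. Symbols and chromosomes came from Ensembl BDGP6.54 release 115, which matched 16649 gene IDs.

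For testing, edgeR 4.0.16 under R 4.3.3 was used: filterByExpr at a minimum count of 10, TMM scaling, quasi-likelihood tests in a fit of 3 genotype groups with 3 residual degrees of freedom, and Benjamini-Hochberg adjustment over all tested genes. The contrast was the mean of XXYohio and XXYcongo minus XX, so its log2 value can differ from the log2 ratio of mean CPM. Body and CNS were fitted likewise, and tissue differences in 1 fit of 18 libraries. The script was tested on simulated data. The biological coefficient of variation was 0.297 in ovary, 0.406 in body and 0.239 in CNS. An exact two-sided permutation test of 4 against 2 libraries has 0.0667 as its smallest p and was left out.

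The members and gene lists were chosen with earlier results of these data known. A list meant for pericentric genes held genes from elsewhere (Mitf on chromosome 4, Lsp1beta far from the centromere), and its counts are not given. Named genes were the protein-coding Y genes and repeat sums, up to 12 called genes per direction, up to 6 called and 4 other non-overlapping members of each list, up to 8 uncalled genes per direction whose mean log2 CPM reached 2, and ovary markers. Outside this rule, and chosen after their values were seen, were CG7785, nmo, CG12535, mt:tRNA:Met-CAT, the sum of 6 Hsp70 copies, overlapping neighbours, vig2, Pof, mt:CoI and mt:CoII. So were Hsp70Aa, Hsp70Ab, Hsp22, Hsp23, Hsp26, Hsp27 and Hsp83, and the fourth-chromosome, heterochromatin and pericentric genes named beside their lists' leading members. Whether replicates were separate flies or cultures is not labelled, and p-values then cover only library-to-library spread, which may be technical. Alternatives were RLE scaling, no filter, DESeq2 1.42.0, XXY as 1 group, all 30 libraries in 1 fit, a replicate block, no mitochondrial genes, and leaving out each library.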

Additional observations from a re-analysis of the deposited data

Results flagged for a closer look

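Among 164 genes and sums with values in the 4 XXY libraries, 10 had 1 library far from the other 3, where chance alone gives about 1 in 20. In XXYcongo replicate 2, pira had 23.2 CPM, above 12.9 to 14.1 CPM in the others, Su(Ste):CR42433 had 9.60 CPM, cuff 20.4 CPM, Vmat 5.22 CPM and laza 30.2 CPM, all above the other 3 libraries, and Gasz had 58.1 CPM, below 129 to 139 CPM. In XXYohio replicate 2, asRNA:CR43425 had 5.81 CPM and Lsp2 6.79 CPM, above the others, and RpS9 had 491 CPM, below 819 to 865 CPM. Hsp70Bc had 6.97 CPM in XXYcongo replicate 1, above 2.90 to 3.36 CPM elsewhere, and still below both XX libraries.

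The 2 added Y chromosomes differed in mt:ND3 by the test of the difference itself (Ycongo minus Yohio log2 -5.29, edgeR adjusted p = 0.0372). Both XXYcongo libraries were below both XXYohio libraries.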

How the results depend on the processing

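The counts of called genes depended on the setting. The 19 called genes kept their sign, which groups that do not overlap largely fix. RLE scaling kept 2 higher and 17 lower. Without a filter 28 were higher and 175 lower, with DESeq2 16 and 86, with the 4 XXY libraries as 1 group 1 and 1, in a fit of all 30 libraries 6 and 25, and without mitochondrial genes 1 and 3. The filter and DESeq2 kept all 19 calls, the fit of 30 libraries kept 6, and the pooled group kept FDY and Hsp70Bb. Without 1 library the counts ran from 0 to 71 higher and from 0 to 229 lower, with 1 residual degree of freedom fewer. The summed Suppressor of Stellate repeats had fitted log2 values of 10.9 to 11.4 without 1 library, which depend on the prior count, since XX has no counts, and are no bound. Replicate numbers did not pair the libraries (correlations of deviations 0.03, 0.19 and 0.16). The replicate block gave 8 higher and 61 lower genes, all 19 among them, 17 for Ycongo against Yohio, 14 in the CNS, 0 in the body and 0 for each tissue difference. Ycongo against Yohio gave 46 with DESeq2 and 0 to 198 without 1 library. DESeq2 called 15 in the body and 48 in the CNS, where leaving out 1 library gave 1 to 44. Markers changed sign without 1 library: tj from -0.66 to 0.20, Yp1 from -0.24 to 0.24 and orb from -0.46 to 0.21. The fourth-chromosome median lay between -0.83 and -0.46 in all 13 alternatives, and that of mitochondrial genes between -3.68 and -1.61 in 12. Summed Stellate repeats were too low to be fitted. Low counts limit the tRNAs and Suppressor of Stellate copies, and 2 XX libraries limit every test.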

Other observations

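Counting genes with no read in either XX ovary and at least 1 in each XXY ovary gave 35 of 16868 genes, chosen after their values were seen. Of these, 15 are Suppressor of Stellate repeats and the other 20 lie on the X or an autosome. The first of those 20 by total was CG14669 on 3R, with 7 and 18 counts in XXYohio, 8 and 21 in XXYcongo and 0 in XX, followed by CG44098, also on 3R, with 43 counts over the XXY libraries and 0 in XX. Neither was called.

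Replicate 1 of XXYcongo and replicate 1 of XX shared high levels of snoRNA, as given beside the mitochondrial genes. Histone genes, whose mRNAs lack poly(A) tails, summed to 176 and 137 CPM in XXYohio, 309 and 87.0 CPM in XXYcongo, and 192 and 124 CPM in XX. In each group replicate 1 was the higher library.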
